A study of Bos taurus with 20 samples.

Results

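Hyaluronan is a long, unbranched sugar polymer that is extruded into the pericellular space by hyaluronan synthases in the plasma membrane, rather than being built on a protein core. It is cut by hyaluronidases and by the CEMIP protein, bound at the cell surface by receptors such as CD44, and organized in the matrix by partners such as versican and the TNFAIP6 protein. In adipose tissue it belongs to the loose matrix around stromal progenitors and blood vessels. The genes described here were the rows of the counts table with the symbols HAS1, HAS2, HAS3, HYAL1, HYAL2, CEMIP, HMMR, CD44, VCAN and TNFAIP6, which made up 10 of 33063 named genes. All 10 symbols were found, and 9 passed the filter on low counts, which kept 12900 genes. The exception was HAS1.

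Levels of these genes were compared between adipogenic (A) and non-adipogenic (N) clones of bovine mesenchymal stem cells (MSCs), 10 of each and 1 RNA sequencing library per clone. Each clone had grown from a single cell sorted from MSCs that had already been passaged in culture. The MSCs came from visceral fat of Holstein Friesian x Aberdeen Angus calves, and the clones used here came from 4 of them. Clones were grown in medium with serum and basic FGF, to which conditioned medium from MSCs of the same animal was added. RNA was taken before differentiation, so an A clone is one whose sister cultures formed adipocytes when induced and stained for lipid, and an N clone is one whose sister cultures did not. The A clones were those with the highest differentiation. Animals 17 and 20 gave 1 clone of each type and animals 22 and 23 gave 4 of each. Clones of 1 animal are not independent animals, so p-values over clones measure the spread between clones. In bulk libraries, fewer cells expressing a gene and less RNA per cell cannot be told apart.

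Total counts ranged from 14615493 to 29185355 in A clones and from 14908802 to 43111345 in N clones. Levels are given in CPM, that is, counts relative to library size after TMM correction for composition. CPM are not divided by transcript length, so they are compared between clones and not between genes. The 6 MSC markers examined were all above the filter and none was called between A and N clones. N clones 22-5 and 22-9 stood apart. The summed level of 8 mesothelial genes was 9400 CPM in clone 22-5 and 6727 CPM in clone 22-9, and from 8.56 to 1129 CPM in the other clones. Clone 22-5 was also lowest for THY1 (0.395 CPM) and NT5E (0.507 CPM), which are defining MSC surface markers. Calls that did not hold without these clones are given with both values. Among markers of other lineages, LYZ was at 0 in all 20 clones and PTPRC at 0 in 18. CSF1R, CD14 and AIF1 were low and were not tested. CSF1R had 0 to 0.254 CPM in N clones and 0.475 to 2.38 CPM in A clones. CD14, up to 6.56 CPM, was at 0 in 2 clones, and AIF1, up to 1.03 CPM, in 3. Of 5 endothelial genes 3 were tested without a call. The most abundant was VWF, up to 30.1 CPM, and PECAM1 had the largest difference (2.49 on the log2 scale, adjusted p 0.0675, edgeR). Of 6 macrophage and blood genes only CD68 was tested, and it was higher in A clones (1.06 on the log2 scale, adjusted p 0.0157), as was MYH11 (3.04, adjusted p 0.0484) of 5 smooth muscle and pericyte genes tested with edgeR. Without clones 22-5 and 22-9 the adjusted p of MYH11 was 0.0830 (6.23e-05 to 0.515 over all alternatives).

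Of the 9 hyaluronan genes tested, 1 was higher in A clones (HAS2) and 1 was lower (HMMR) at an adjusted p under 0.05 by edgeR's quasi-likelihood test with the animal as a block and Benjamini-Hochberg adjustment. Both changed by at least 2-fold. Of all genes tested, 10.3% were called higher and 10.3% lower, 20.6% in either direction, so 2 of 9 was near the background. The median absolute difference was 0.94 on the log2 scale over the 9 genes and 0.25 over all genes. The signed median was 0.41 over the 9 genes, 8 of which had positive values, and -0.01 over all genes. The genes were chosen with earlier results of these data known, and some varied widely among clones. A shift of the 9 genes as a set was not tested. In no hyaluronan gene were the groups free of overlap, as they were in 0.318% of all genes. The plot of levels by clone shows this overlap for each gene.

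**Figure D1:**
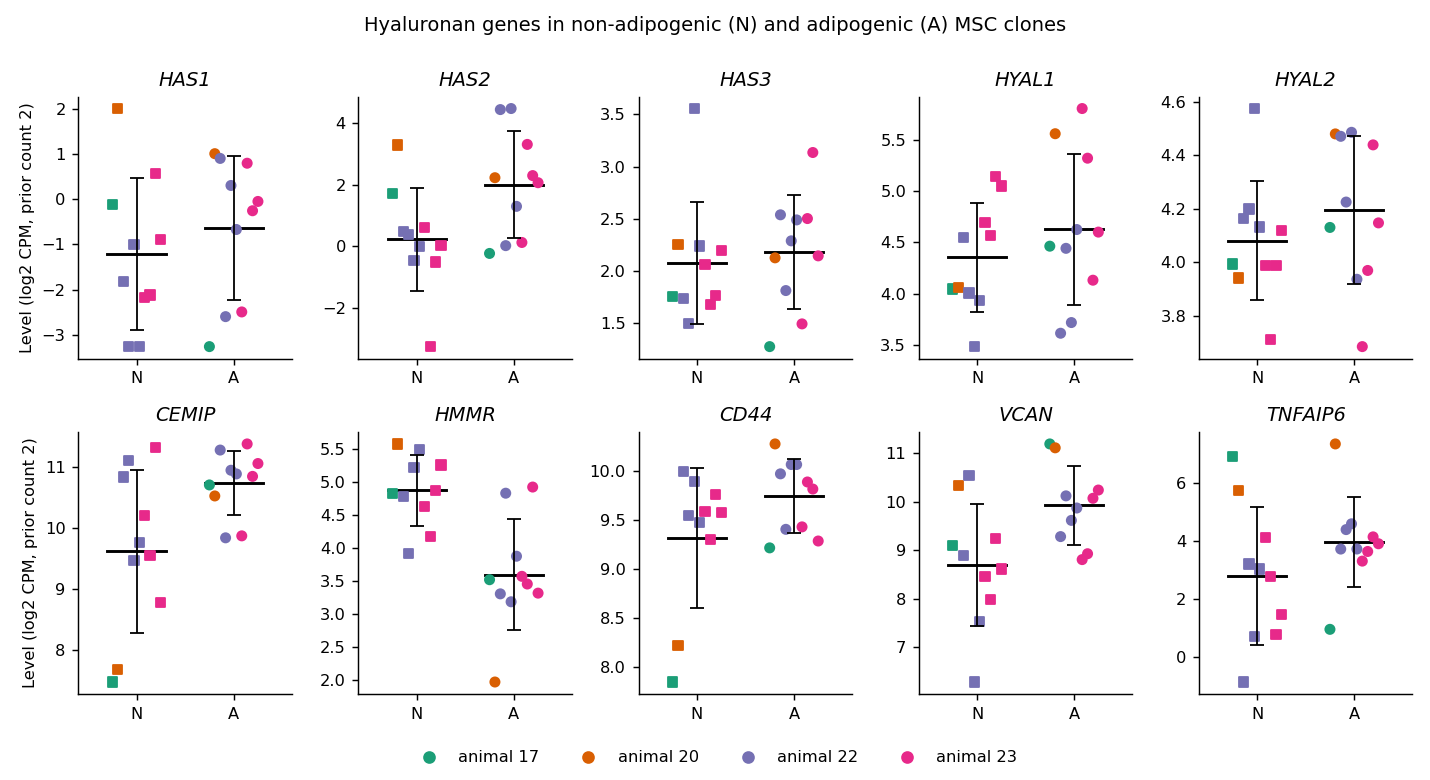
Levels of the 10 hyaluronan genes in each of the 20 clones, as log2 CPM with a prior count of 2, with N clones as squares, A clones as circles and colours for the 4 animals. Thick lines are means and thin bars are SD over 10 clones of a group, and the vertical axes differ between genes and do not start at 0. The groups overlap in every panel, and HMMR has 8 A clones below all N clones.

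HAS2 encodes the synthase that makes most hyaluronan in fibroblasts and other mesenchymal cells. Its level ranged from 0 to 9.74 CPM in N clones (median 1.06) and from 0.748 to 22.3 CPM in A clones (median 4.35). The means were 1.99 ± 2.85 and 7.25 ± 8.26 CPM (SD, n = 10 each). HAS2 was thus scarce in most N clones and uneven among A clones, and 3 A clones lay above all N clones while 3 N clones lay below all A clones. The fitted difference was 2.44 on the log2 scale (SE 0.836, 95% interval 0.68 to 4.20), or 5.43-fold higher in A clones, with an adjusted p of 0.0477 by edgeR's test.

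HAS2 was higher in the A clones of animals 22 and 23 on average. In animal 22, the 4 A clones had 0.912, 2.36, 21.8 and 22.3 CPM and the 4 N clones 0.620, 0.899, 1.19 and 1.30 CPM. In animal 23, the A clones had 0.987, 4.10, 4.83 and 9.87 CPM and the N clones 0, 0.599, 0.922 and 1.41 CPM. The single pairs of animals 17 and 20 went the other way. Clone N 17-23 had 3.21 CPM against 0.748 CPM in A 17-57, and N 20-15 had 9.74 CPM against 4.599 CPM in A 20-106. The count of 0 in N 23-22 allows up to 0.189 CPM, for counting error only. With animals 22 and 23 alone the difference was 3.15 (adjusted p 0.0111, edgeR), and without clones 22-5 and 22-9 it was 2.07 (adjusted p 0.153). Over all alternatives the adjusted p of HAS2 ranged from 0.00191 to 0.787.

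The HAS2 call was close to the threshold. With counts summed per animal and clone type the difference was 0.81 (SE 1.32, adjusted p 0.787), and without animal 22 it was 1.44 (adjusted p 0.390). The call was kept without clone 22-121, without clone 23-108, and without either clone of animal 17 or of animal 20. With the animal as a block, leaving out 1 clone of animal 17 or 20 takes that animal's pair out of the comparison. These pairs had gone the other way. The call was lost when any other single clone was left out, with differences of 2.16 to 2.80 over all single clones. It was also lost without the animal block (1.87, adjusted p 0.0964), without the filter on low counts (2.43, adjusted p 0.0697) and with limma-voom (1.97, adjusted p 0.115). The clones with the most HAS2, A 22-11 and A 22-16, also had the largest sums of mesothelial genes among A clones, 1129 and 963 CPM. Some other clones did not share this pairing. N clones 22-5 and 22-9, with by far the largest sums, had 0.620 and 0.899 CPM of HAS2, while A 23-14 and N 20-15, with 9.87 and 9.74 CPM of HAS2, had mesothelial sums of 8.56 and 17.9 CPM. Over that list, 7 of 8 genes were tested and 1 (MSLN) was lower in A clones, though not without clones 22-5 and 22-9 (adjusted p 0.393, the highest of its alternatives, which began at 0.00498). The sums ranged from 8.80 to 9400 CPM in N clones and from 8.56 to 1129 CPM in A clones, and KRT8, KRT18, KRT19, WT1, LRRN4 and BNC1 were at 0 in at least 1 clone of each type. Their part in the HAS2 result was not tested.

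HAS1 and HAS3 are the other synthases, and HAS3 is known for making shorter chains. HAS1 had 0 to 64 counts per clone. Its level ranged from 0 to 3.92 CPM in N clones (median 0.287) and from 0 to 1.91 CPM in A clones (median 0.798). It was listed at 0 in N clones 22-9 and 22-18 and in A clone 17-57, where 3 counts would be 0.180, 0.0762 and 0.204 CPM. The groups overlapped throughout, and the difference in mean log2 CPM was 0.58 (two-sided exact permutation test within animals, p = 0.400). A fit without the filter gave 0.89 (SE 0.868, adjusted p 0.504, edgeR).

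HAS3 was detected in every clone. Its level ranged from 2.72 to 11.7 CPM in N clones (mean 4.50 ± 2.61) and from 2.31 to 8.68 CPM in A clones (mean 4.72 ± 1.83, SD, n = 10 each). The groups lay over each other. The difference was 0.06 on the log2 scale (SE 0.270, 95% interval -0.50 to 0.63, adjusted p 0.885), and its sign turned under some alternatives. The highest level was in N clone 22-5, one of the clones that stood apart, and without clones 22-5 and 22-9 the difference was 0.38 (adjusted p 0.263). Over all alternatives the adjusted p of HAS3 ranged from 0.263 to 0.994. In the RefSeq annotation HAS3 overlaps DERPC and CHTF8, and the strand setting of the counting was not stated, so its counts are uncertain.

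**Figure D2:**
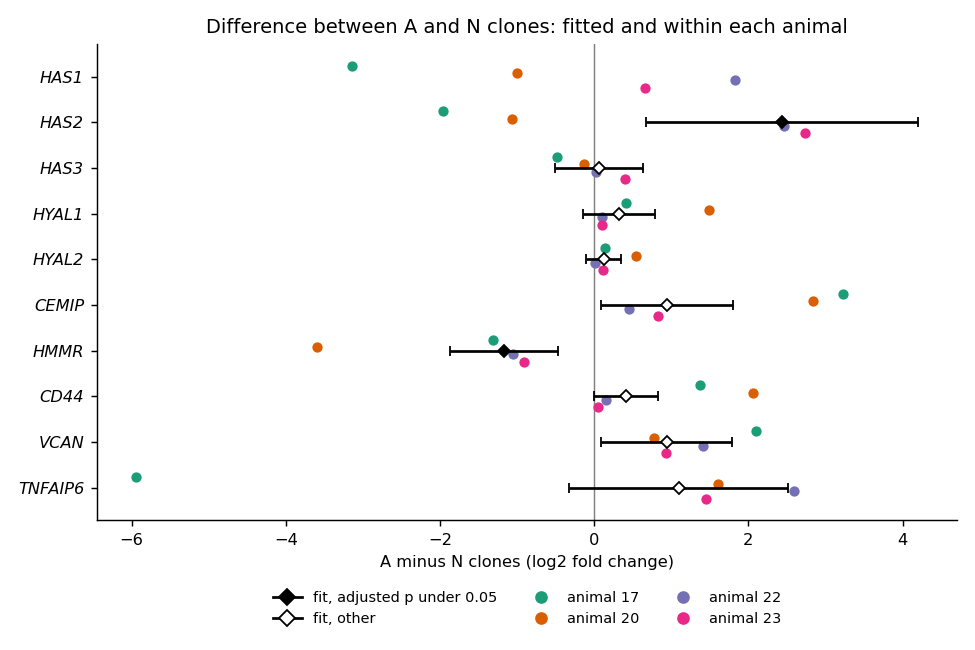
Differences between A and N clones on the log2 scale for the 10 hyaluronan genes. Diamonds are the fitted differences with 95% intervals (filled where the adjusted p was under 0.05) and coloured points are the differences in mean log2 CPM within each animal, with no fit for HAS1. The points of HAS2 fall on both sides of 0, and those of HMMR are all below 0.

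No gene for cutting hyaluronan passed the test. HYAL2, a membrane-anchored hyaluronidase, was the steadiest of the genes. Its level ranged from 13.0 to 23.7 CPM in N clones (median 16.5) and from 12.8 to 22.3 CPM in A clones (median 18.1). Over all 20 clones the highest level was 1.86 times the lowest. The difference was 0.13 (SE 0.108, 95% interval -0.10 to 0.35, adjusted p 0.417). HYAL2 overlaps TUSC2 in RefSeq, which leaves its counts uncertain in the same way.

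HYAL1, the lysosomal hyaluronidase, ranged from 11.1 to 35.2 CPM in N clones (median 20.0) and from 12.2 to 55.7 CPM in A clones (median 23.1). The difference was 0.32 (SE 0.221, 95% interval -0.14 to 0.79, adjusted p 0.300). Clones of animal 23 had more HYAL1 on average than clones of animal 22, for both clone types. In animal 22 the means of its A and N clones were 17.9 ± 6.19 and 16.4 ± 5.10 CPM, and in animal 23 they were 34.3 ± 17.1 and 29.4 ± 5.58 CPM (SD, n = 4 each).

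CEMIP encodes a hyaluronan-binding protein needed for depolymerization of hyaluronan by skin and synovial fibroblasts. It ranged from 178 to 2531 CPM in N clones (median 807) and from 914 to 2654 CPM in A clones (median 1859). The means were 1087 ± 830 and 1792 ± 576 CPM (SD, n = 10 each). A clones kept to the upper part of the range, and 6 N clones lay below all A clones. The difference was 0.95 (SE 0.405, 95% interval 0.09 to 1.80), which did not pass the adjustment (adjusted p 0.102).

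The lowest CEMIP levels were in the N clones of animals 17 and 20, at 178 and 206 CPM, against 1668 and 1471 CPM in the A clones of the same animals. In animal 22 the N and A means were 1396 ± 726 and 1812 ± 653 CPM, in animal 23 they were 1225 ± 922 and 1883 ± 719 CPM (SD, n = 4 each), and the groups overlapped in both. The value was higher in A clones in 4 of 4 animals. It passed the threshold with DESeq2 (0.96, adjusted p 0.0467) and in edgeR's test when N clone 23-23, the highest N clone, was left out (1.22, adjusted p 0.0386). Over all alternatives the adjusted p ranged from 0.0386 to 0.670.

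HMMR encodes a hyaluronan-binding protein that is found at the cell surface and, in dividing cells, on the mitotic spindle. It ranged from 15.0 to 47.4 CPM in N clones (median 28.7) and from 3.82 to 30.2 CPM in A clones (median 11.1). The means were 30.9 ± 10.8 and 13.9 ± 8.50 CPM (SD, n = 10 each). Most A clones were thus low, with 8 of 10 below all N clones, and 4 N clones were above all A clones. HMMR fell by 1.18 on the log2 scale (SE 0.332, 95% interval -1.88 to -0.48), which is 2.26-fold lower in A clones (adjusted p 0.0211, edgeR). HMMR is among the surface genes that the study listed for their change in these same samples, so its direction is not independent evidence.

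HMMR was lower in A clones in 4 of 4 animals, with differences in mean log2 CPM of -1.31, -3.60, -1.05 and -0.91 in animals 17, 20, 22 and 23. The widest gap was in animal 20, with 47.4 CPM in the N clone and 3.82 CPM in the A clone. The A clones 22-121 and 23-62 had 28.3 and 30.2 CPM and were within the N range. The call held when each of the 20 clones was left out in turn, with adjusted p from 0.00690 to 0.0425. For animals 17 and 20, leaving out either clone takes that animal's pair out of the comparison. Without clones 22-5 and 22-9 together, which had 37.0 and 44.9 CPM, the difference was -1.03 and the adjusted p 0.0752. With animals 22 and 23 alone it was -0.91 with an adjusted p of 0.0550. Over all alternatives the adjusted p ranged from 0.00272 to 0.292.

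HMMR moved with genes of cell division. Of 14 mitotic genes, such as MKI67, CDK1 and AURKB, all were tested and 11 were lower in A clones, with a median difference of -1.26, and none was at 0 in any clone. Their summed level ranged from 213 to 866 CPM in N clones (median 466) and from 57.1 to 550.1 CPM in A clones (median 211). Without clones 22-5 and 22-9 the number lower was 2 of 14, and with animals 22 and 23 alone it was 3 of 14. Clones 22-5 and 22-9 had the largest mitotic sums, 866 and 854 CPM. The part of cell division in the HMMR result was not tested.

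Within N clones, log2 HMMR and the log2 summed mitotic level correlated at r = 0.883 (permutation p = 0.00108) and rho = 0.855 (permutation p = 0.0031), with adjusted p of 0.0082 and 0.031 over 10 relations. Without the clones farthest from the median, 22-18 and 22-5, r was 0.834 (exact permutation p = 0.0124). Within A clones, r was 0.915 (permutation p = 0.00164, adjusted p 0.0082) and rho was 0.709 (permutation p = 0.0275, adjusted p 0.138). Leaving out A clones 20-106 and 23-62 gave r = 0.725 (exact permutation p = 0.0726), a lower value that did not pass 0.05 with 8 clones. Within animals 22 and 23, centred on each animal, r was 0.965 in N clones and 0.923 in A clones (exact permutation p = 0.000496 and 0.00347, n = 8 each).

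**Figure D3:**
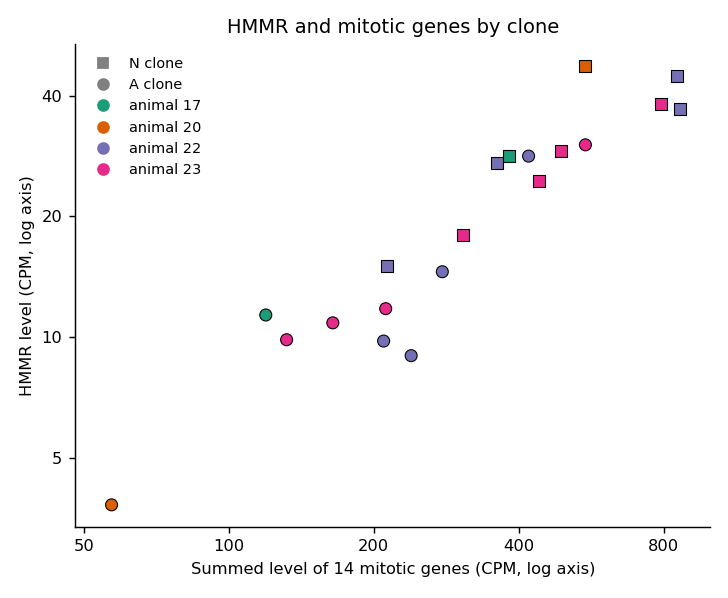
HMMR level against the summed level of 14 mitotic genes in each of the 20 clones, both in CPM on log axes, with N clones as squares, A clones as circles and colours for the 4 animals. Clones with more mitotic RNA had more HMMR in both groups, from A clone 20-106 at 57.1 and 3.82 CPM to N clone 22-9 at 854 and 44.9 CPM.

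CD44 encodes the main cell surface receptor for hyaluronan and a standard marker of MSCs. It ranged from 231 to 1022 CPM in N clones (median 757) and from 596 to 1247 CPM in A clones (median 927). The means were 701 ± 257 and 885 ± 224 CPM (SD, n = 10 each), and the groups overlapped over most of their range. The difference was 0.41 (SE 0.196, 95% interval -0.0011 to 0.83, adjusted p 0.139). As with CEMIP, the lowest values were in the N clones of animals 17 and 20, at 231 and 299 CPM, against 596 and 1247 CPM in their A clones. With animals 22 and 23 alone the difference was 0.11 (adjusted p 0.578). Over all alternatives the adjusted p ranged from 0.0853 to 0.848. CD44 overlaps an uncharacterized RefSeq locus, so some of its reads may belong to it.

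VCAN encodes versican, a large proteoglycan that binds hyaluronan through its head domain. It ranged from 77.9 to 1488 CPM in N clones (median 433) and from 448 to 2341 CPM in A clones (median 1004). The means were 567 ± 466 and 1123 ± 663 CPM (SD, n = 10 each). A clones were higher on average in 4 of 4 animals. The A clones of animals 17 and 20, at 2341 and 2216 CPM, lay above all N clones, and 5 N clones lay below all A clones.

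The difference of VCAN was 0.94 (SE 0.401, 95% interval 0.09 to 1.78) and did not pass the adjustment (adjusted p 0.102, edgeR). N clone 22-18, at 1488 CPM, set it more than any other library, and without it the difference was 1.39 (adjusted p 0.00742). VCAN also passed with limma-voom (1.27, adjusted p 0.0448) and without animal 22 (1.15, adjusted p 0.0495). The lowest levels, 77.9 and 184 CPM, were in N clones 22-5 and 22-9, and without these 2 the difference was 0.70 (adjusted p 0.146). Over all alternatives the adjusted p ranged from 0.00742 to 0.693.

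TNFAIP6 encodes a secreted protein, also called TSG-6, which moves heavy chains of inter-alpha-inhibitor onto hyaluronan and is known as a gene that inflammatory cytokines induce. It ranged from 0.447 to 119 CPM in N clones (median 7.45) and from 1.83 to 163 CPM in A clones (median 14.0). The means were 22.0 ± 37.6 and 29.0 ± 47.3 CPM (SD, n = 10 each). Of the hyaluronan genes with counts in every clone it had the widest range, with the highest level 364 times the lowest. The difference was 1.10 (SE 0.674, 95% interval -0.33 to 2.52, adjusted p 0.250).

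TNFAIP6 was higher on average in the A clones of 3 of 4 animals, and the single pair of animal 17 went the other way. Without animal 17 the difference was 1.43 (adjusted p 0.0574, edgeR). Over all alternatives the adjusted p of TNFAIP6 ranged from 0.0568 to 0.906. In animal 17 the N clone had 119 CPM and the A clone 1.83 CPM. In animal 20 the order was the reverse, with 53.4 CPM in the N clone and 163 CPM in the A clone. In animal 22 the A clones had 13.1 to 24.01 CPM and the N clones 0.447 to 9.12 CPM, with no overlap, and in animal 23 they had 9.79 to 17.6 and 1.62 to 17.4 CPM.

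Cytokine response genes were uneven in the same clones. Of 10 such genes, 9 were tested and 4 were higher in A clones (IL6, PTGS2, CCL2 and TNFAIP3), with a median difference of 1.43. Without clones 22-5 and 22-9 PTGS2 was not called (2.11, adjusted p 0.0892, with 0.00467 to 0.406 over all alternatives). Their summed level ranged from 63.9 to 332 CPM in N clones and from 163 to 1998 CPM in A clones, and IL6, CCL2 and IL1B were at 0 in at least 1 N clone. The highest sum was in A clone 20-106, which had the most TNFAIP6. Among N clones the highest sums, 332 and 331 CPM, were in 17-23 and 20-15, which had the most TNFAIP6 of that group. The pairing did not hold in every clone. A clone 17-57 had a sum of 442 CPM, above every N clone, with the least TNFAIP6 of the A clones (1.83 CPM), and A 23-14 had the next highest sum after 20-106, 568.5 CPM, with 12.3 CPM of TNFAIP6, below the A median. Their part in the TNFAIP6 values was not tested.

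Spread among clones set these genes apart from each other. For HAS2, the SD of log2 CPM was larger than in 96.7% of all genes tested among A clones and in 93.1% among N clones. For TNFAIP6 these shares were 95.7% and 97.5%. HYAL2 was at 38.9% and 19.7%. These ranks were over all genes tested, whatever their level, and the SD includes differences between animals. Low counts add to the SD of log2 CPM, and HAS2 had few counts in most N clones, with 0 in N 23-22.

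The difference between A and N clones was also compared between animals 22 and 23, the animals with 4 clones of each type. No hyaluronan gene had an interaction at an adjusted p under 0.05 in edgeR's test, against 0.031% of the genes tested, and 0 had an unadjusted p under 0.05, against 9.07% of all genes. The adjusted p ranged from 0.774 to 0.970. DESeq2 gave no call either, with a smallest adjusted p of 0.787. For HAS2 the difference between A and N clones in animal 23 minus that in animal 22 was -0.82 with an SE of 1.39.

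Levels were then compared between the animals themselves. None of the 9 genes tested differed between animal 23 and animal 22 at an adjusted p under 0.05 by edgeR, against 0.14% of all genes. At an unadjusted p under 0.05 there were 2 of 9, against 10.9% of all genes. HYAL1 was 0.89 higher on the log2 scale in animal 23 (SE 0.247, unadjusted p 0.00218 and adjusted p 0.174 from edgeR), which was called with DESeq2 (0.89, adjusted p 0.0314). HYAL2 was -0.27 (SE 0.121, adjusted p 0.430). The other 7 had adjusted p from 0.733 to 0.992.

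Relations of HAS2 and HAS1 with other measures did not pass the adjustment over the 10 relations. HAS2 and CD44 correlated at r = 0.662 in A clones (permutation p = 0.0404, adjusted p 0.135) and rho = 0.626 (permutation p = 0.0582). In N clones r was -0.560 (permutation p = 0.0916), and it turned to 0.518 (exact permutation p = 0.176) without clones 17-23 and 20-15, on which the negative value rested. HAS1 and the mesothelial sum gave r = 0.209 in A clones (permutation p = 0.557) and -0.414 in N clones (permutation p = 0.225). HAS2 with TNFAIP6 gave 0.357 and 0.501, and HAS2 with VCAN -0.348 and 0.522, in A and N clones, with adjusted p of 0.224 or above.

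Other genes of hyaluronan biology were taken from a list of 41 symbols, of which 40 were in the table and 23 were tested. Of these, 6 were higher in A clones and 0 were lower by edgeR's test, which is 26.1% against 10.3% of all genes called higher. The list was put together with earlier results of these data known. Without clones 22-5 and 22-9 the number higher was 3 (HEXA, TLR2 and HABP4), with adjusted p of 0.0994 for GFPT1, 0.154 for GFPT2 and 0.0728 for PTX3. Across alternatives it ranged from 0.00403 to 0.797 for GFPT1, from 0.00915 to 0.650 for GFPT2 and from 0.00156 to 0.417 for PTX3. The number higher was also 3 without any 1 of the clones N 22-9, N 23-22, A 22-11, A 22-16 or A 23-14.

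The precursors of hyaluronan are UDP-glucuronic acid and UDP-N-acetylglucosamine. Of 7 genes of their supply, GFPT1 and GFPT2, which open the hexosamine pathway, were higher in A clones. GFPT1 rose by 0.52 (SE 0.166, adjusted p 0.0353), from 93.4 ± 36.2 to 127 ± 21.6 CPM. GFPT2 rose by 0.82 (SE 0.279, adjusted p 0.0464), from 134 ± 46.4 to 253 ± 146 CPM. UGDH, which makes UDP-glucuronic acid, differed by 0.45 (SE 0.303, adjusted p 0.291), and the median over the 7 genes was 0.28.

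Fragments of hyaluronan are broken down in lysosomes by exoglycosidases. Of 2 such genes, HEXA, a subunit of beta-hexosaminidase, rose by 0.48 (SE 0.126, adjusted p 0.0143), from 54.4 ± 8.50 to 76.7 ± 16.8 CPM (SD, n = 10 each). GUSB, which removes glucuronic acid, differed by 0.31 (adjusted p 0.0687). Among other depolymerases, CEMIP2 was the most abundant, at 229 ± 71.8 CPM (N) and 265 ± 98.01 CPM (A), and differed by 0.23 (adjusted p 0.367), as HYAL3 did by 0.23 (adjusted p 0.259). HYAL4 was at 0 in 18 clones and SPAM1 in 19, both in all N clones, and neither was above 0.068 CPM in any A clone.

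PTX3, which cross-links the heavy chains that TNFAIP6 places on hyaluronan, rose by 2.49 (SE 0.769, adjusted p 0.0312), from 4.51 ± 4.64 to 21.6 ± 26.3 CPM. It was the only tested gene of 7 in its group. ITIH1 and ITIH2, which encode heavy chains made mainly in liver, were at 0 in all 20 clones. Of the link proteins and other lecticans, HAPLN3 was the only tested gene of 7 and differed by -0.33 (adjusted p 0.558).

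Of 9 other receptors and binding proteins, 6 were tested and 2 rose. TLR2, an innate immune receptor that hyaluronan fragments can engage, rose by 2.67 (SE 0.483, adjusted p 0.00212), from 0.758 ± 0.772 to 4.80 ± 3.05 CPM. HABP4, an intracellular protein with hyaluronan-binding motifs, rose by 0.56 (SE 0.138, adjusted p 0.0104), from 30.0 ± 8.05 to 43.5 ± 6.27 CPM. The lymphatic receptor LYVE1 differed by 1.07 (SE 0.898, adjusted p 0.405). None of the 4 linkers between CD44 and the cytoskeleton was called, and the most abundant, EZR, differed by -0.32 (adjusted p 0.245).

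**Figure D4:**
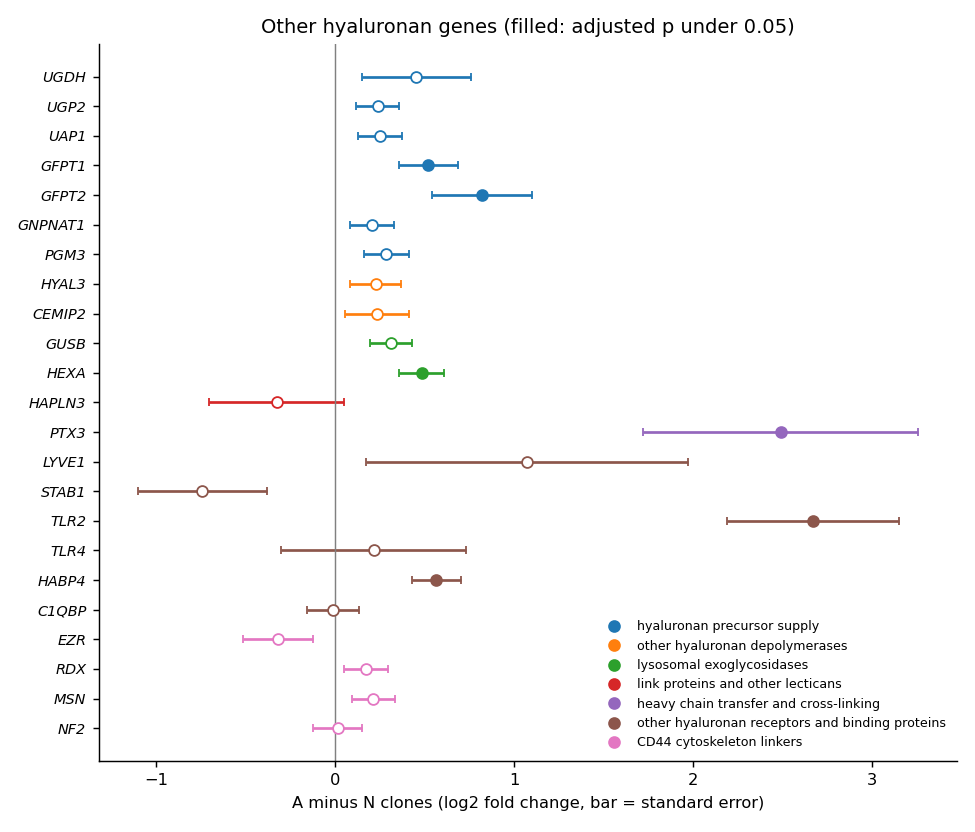
Differences between A and N clones on the log2 scale for the 23 other hyaluronan genes that were tested, with SE bars and colours by group. Filled points had an adjusted p under 0.05. All 6 filled points (GFPT1, GFPT2, HEXA, PTX3, TLR2 and HABP4) lie to the right of 0.

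For each gene tested, the genes with the most similar pattern were ranked by Pearson r of log2 CPM centred within each animal and clone type. Only the 16 clones of animals 22 and 23 inform these values, which are a description without a test. HMMR was closest to BUB1B (r = 0.947), GAS2L3 (0.944) and BIRC5 (0.942), all genes of mitosis or cytokinesis. HAS2 was closest to LIN7C (0.892), CCDC71L (0.869) and NUP153 (0.863). HAS3 was closest to PLEKHA5 (0.912), UGCG (0.910) and POP1 (0.907). No gene of the 10 was among the closest of another.

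HYAL1 was closest to RTN4 (0.897), ARHGEF2 (0.892) and KCTD1 (0.885), and HYAL2 to CSTF2T (0.891), LPCAT4 (0.886) and HAUS6 (0.875). CEMIP was closest to MXRA5 (0.905), FUBP3 (0.882) and ANKFY1 (0.864). CD44 was closest to UBE2J1 (0.880), ATG4B (0.873) and SPHK1 (0.859). None of these is itself a gene of the hyaluronan lists. VCAN was closest to EHBP1 (0.936), CALU (0.930) and IL6R (0.929). TNFAIP6 had the least similar neighbours, PHF7 (0.809), RPS6KL1 (0.786) and TGFBR3 (0.767).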

How the data were processed

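RNA sequencing libraries of 20 clones were used, 10 A and 10 N, with clone type and animal taken from the sample labels. The authors deposited raw counts per gene. Per the labels and methods, directional libraries were sequenced as paired 150 bp reads, trimmed with Trimmomatic 0.36, mapped with STAR 2.5.2b to ARS-UCD1.2 and counted as unique reads within exons with featureCounts of Subread 1.5.2. The methods name an Ensembl reference, whereas rows carry NCBI symbols. Strand setting and treatment of overlapping genes were not stated, so counts of overlapping genes are uncertain. RefSeq names and neighbours came from ARS-UCD2.0, and no coordinates are given because the builds differ. The table had 33064 rows. The unnamed row, with 0.113% to 0.333% of counts, was left out. Columns from other series numbered 0. Total counts of 14615493 to 43111345 per clone limit the precision of low genes.

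From the counts, edgeR 4.0.16 in R 4.3.3 was run on the whole table (TMM, default filter on clone type, robust quasi-likelihood F test, animal as a block, Benjamini-Hochberg adjustment over all genes tested, threshold 0.05). A and N clones are paired through the animal, and their deviations from the mean of their clone type correlated (animal 17, 0.253; animal 20, 0.193; animal 22, 0.241; animal 23, 0.440). A prior count of 2 was added for log2 CPM. SE is the log2 difference over the root of F. Correlations used 100000 permutations, or all of them for 8 clones. The limit for a count of 0 was 3 counts.

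Named were all 10 hyaluronan genes, the called or most abundant genes of the other lists, and the 3 genes closest to each hyaluronan gene. Further genes (UGDH, HYAL3, HYAL4, SPAM1, GUSB, ITIH1, ITIH2, LYVE1, AIF1, CD14, CSF1R, PECAM1) were named after values were seen. The hyaluronan genes and lists were chosen with earlier results of these data known. Alternatives were no animal block, other normalizations and filters, DESeq2 1.42.0, limma-voom (limma 3.58.1), counts summed per animal and clone type, single animals, and each animal or clone left out. Because the animal is a block, leaving out either clone of animal 17 or 20 takes that animal's pair out of the comparison. Animals 22 and 23 together, and clones 22-5 and 22-9 left out together, were chosen after seeing the data, as were the alternatives for genes of the other lists. Scripts were tested on simulated data. With 200 genes changed between clone types by 2 on the log2 scale, edgeR recovered 88% with 4 false calls, and DESeq2 93% with 28 false calls. The interaction test of edgeR recovered 59.5% of such changes with 6 false calls. No other difference between animals was simulated, and all tested hyaluronan genes but HAS2 had smaller differences between clone types. These shares therefore do not give the power for them. Sequences were not used here, and 1 gene of the lists is not reported here.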

Additional observations from a re-analysis of the deposited data

Results flagged for a closer look

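Among N clones, HAS3 was far higher in clone 22-5 than in the others, at 11.7 CPM against 4.66 CPM in the next clone, a gap of 0.634 of the range of the 10 clones on the log2 scale, which is above Dixon's critical value. Of 20 groups examined (10 genes in 2 clone types), 1 stood out, and 1 is the number that chance gives. Clone 22-5 is one of the clones with high mesothelial genes, and the part of that in its HAS3 level was not tested.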

How the results depend on the processing

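The number of hyaluronan genes higher in A clones, 1 as reported, was 0 without the animal block (no replicate block), without the filter, with at least 10 counts in every clone (which left HAS2 out), with counts summed per animal and clone type, in animal 22 or 23 alone, without animal 23, and without clones 22-5 and 22-9, and 2 with DESeq2 and the block. It was 0 to 1 when single clones were left out. The 1 gene called higher was not always HAS2. It was VCAN with limma-voom, without animal 22 and without N 22-18, and CEMIP without N 23-23. HAS2 was not called in these alternatives. The number lower, 1 as reported, was 0 with summed counts, in animal 22 or 23 alone, without animal 22 or 23, with animals 22 and 23 only, and without clones 22-5 and 22-9, and 1 throughout when single clones were left out. Fits on single animals, or without some animals or clones, hold fewer samples, whereas those without the animal block or with another filter hold all clones. The cause of the changes was not tested for any alternative. The other hyaluronan genes called higher, 6 as reported, were 0 with summed counts, in animal 22 alone and without animal 23, 3 in animal 23 alone, without animal 22 and without clones 22-5 and 22-9, and 3 to 7 without single clones. The mitotic genes called lower, 11 as reported, were 0 with summed counts, in animal 22 or 23 alone and without animal 23, 2 without animal 22 and without clones 22-5 and 22-9, 3 with animals 22 and 23 only, 7 without animal 17 or 20, and 5 to 14 without single clones, with 7 or fewer without N 17-23, 20-15, 22-5, 22-9 or 23-74 or A 17-57, 20-106, 22-11, 22-16 or 23-14. DESeq2 called 1 gene (HYAL1) between animals. Without the block, edgeR called 4 of the other hyaluronan genes and 9 mitotic genes, and in DESeq2 CEMIP (adjusted p 0.0467 with the block) was not called (0.73, adjusted p 0.190).

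HAS3 turned to -0.028 with summed counts, -0.20 in animal 22 alone and -0.24 without animal 23, and ranged from -0.088 to 0.32 without single clones (-0.0085 without N 22-18 and -0.088 without A 23-62). Correlations moved as follows: HMMR with mitotic genes in A clones, 0.725 without the farthest clones; HAS1 with mesothelial genes, -0.179 in A clones without the farthest and 0.054 in N clones centred by animal; HAS2 with CD44, 0.660 centred and 0.652 without the farthest in A clones, and 0.433 and 0.518 in N clones. Of the log2 differences under all alternatives, 292 kept their direction and side of the threshold, 30 lost the threshold, 5 gained it and 5 (HAS3) changed sign. Most of the 292 were genes that were not called and stayed so. Only HAS2 and HMMR could lose the threshold, and all 30 losses were theirs. HAS2 passed it in 13 of 36 alternatives and HMMR in 30 of 37. Counts near 0 limit HAS1 and HAS2.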

Other observations

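HYAL1 and HYAL2, which are neighbours in RefSeq together with HYAL3, varied in opposite directions among clones. Over the 16 clones of animals 22 and 23, centred within each animal and clone type, r was -0.765 (permutation p = 0.00832) and rho was -0.779 (permutation p = 0.00605). It was -0.869 in animal 22 and -0.686 in animal 23, -0.966 among A clones and -0.242 among N clones, and -0.600 without clones 23-108 and 23-62. The 36 pairs of hyaluronan genes were compared after values were seen, and none passed the adjustment (adjusted p 0.211 for r and 0.218 for rho). The pair with the largest positive value was HAS3 and HYAL2, at r = 0.674 (permutation p = 0.0117, adjusted p 0.211).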
